A study of Mus musculus with 6 samples.

Results

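The IgLON genes encode a small family of cell adhesion molecules of the immunoglobulin superfamily, and all 5 mouse members, Negr1, Lsamp, Ntm, Opcml and Iglon5, were measured among 19938 genes. Members were taken by gene symbol from the annotation of the platform, with the probe set of the highest mean over the 6 arrays to stand for each gene. Probe sets were thus chosen by their mean signal, but each member had only 1, so this choice decided nothing. The family itself was picked with the rise of Negr1 in these arrays already known, so its values are a description and not independent support for that rise.

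The cells came from 1 mouse embryonic stem cell line of the 129SVEV background, in which an IRES-GFP cassette with its Neo cassette had been knocked in behind the coding region of Ctip2 (Bcl11b), and all arrays share this allele. The line was differentiated as floating SFEBq aggregates, with the TGF-β receptor inhibitor SB-431542 and the WNT inhibitor WNT-C59 added by day 6, and CTIP2:GFP+ and CTIP2:GFP- cells were sorted on day 11, day 12 and day 13. RNA of each fraction on each day was hybridised to 1 GeneChip Mouse Gene 1.0 ST array, which gives 3 arrays per fraction. No day was repeated. A p-value from the fit with day as a factor thus rests on how the difference between the fractions varied over days. This variation is moderated by limma with the spread of all genes.

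IgLON proteins have 3 immunoglobulin domains and no membrane-spanning segment, and a glycosylphosphatidylinositol (GPI) anchor holds them in the outer leaflet of the membrane. They bind each other in pairs, within a cell and between cells, and act in neurite growth, axon fasciculation and synapse formation. Metalloproteases can release them from the surface. Lsamp is known as the limbic system-associated membrane protein, Ntm as neurotrimin, Opcml as the opioid-binding cell adhesion molecule and Negr1 as neuronal growth regulator 1.

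The genes lie on 4 chromosomes in the RefSeq annotation of GRCm38.p6. Negr1 is on chromosome 3, Lsamp on chromosome 16 and Iglon5 on chromosome 7, while Opcml and Ntm are neighbours on chromosome 9 with 0 coding genes between them. RefSeq promoter windows, from 250 bases before to 50 bases after an annotated start, matched all 5 members in 7 windows, because Lsamp and Ntm each have 2 listed starts, and a signal per gene does not say which start was used. The windows of Negr1 and of the first start of Lsamp are shown because these are the members whose fractions did not overlap, in opposite directions. Both are on the + strand, at chr3:156561544-156561843 and chr16:39984114-39984413, and capitals mark CG dinucleotides.
Negr1: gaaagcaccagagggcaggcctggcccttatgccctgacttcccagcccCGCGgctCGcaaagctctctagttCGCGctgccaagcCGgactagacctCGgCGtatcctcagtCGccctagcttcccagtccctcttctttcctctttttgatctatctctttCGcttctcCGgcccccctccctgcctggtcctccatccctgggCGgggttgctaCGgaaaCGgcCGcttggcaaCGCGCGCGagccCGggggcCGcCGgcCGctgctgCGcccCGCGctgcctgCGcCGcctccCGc
Lsamp: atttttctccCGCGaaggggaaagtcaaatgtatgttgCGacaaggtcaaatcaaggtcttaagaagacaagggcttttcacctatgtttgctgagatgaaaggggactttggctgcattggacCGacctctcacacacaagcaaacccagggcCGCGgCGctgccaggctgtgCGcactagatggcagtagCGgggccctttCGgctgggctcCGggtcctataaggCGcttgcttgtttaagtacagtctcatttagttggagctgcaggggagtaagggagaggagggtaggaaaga
The Negr1 window held 29 CG dinucleotides, a number reached by 12.9% of 32851 promoter windows, and 68.0% of its bases were G or C. The Lsamp window held 12 CG dinucleotides, a number reached by 39.6% of windows, with 53.0% G or C. The other Lsamp start had 3, the starts of Ntm had 2 and 19, that of Opcml had 9 and that of Iglon5 had 16, against a median of 7 over all windows. The E-box CANNTG, whose letters read the same way on both strands, was present in 6 of the 7 windows, all but that of Negr1, and in 72.3% of all windows. The arrays measured neither binding nor methylation, and these letters describe the windows only.

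The arrays differed in the spread of their signals and in their likeness to each other. The GFP- array of day 13 had an SD of 1.11 over its probe sets, while the other 5 arrays had 1.29 to 1.48, and its highest Pearson correlation with another array across probe sets was 0.927, against 0.963 to 0.990 for the others. Bcl11b, whose reporter was sorted, was higher in GFP+ cells on all 3 days by 1.87 on the log2 scale (standard error 0.19, adjusted p = 0.025 from limma). Of 15 general neuronal markers 4 were higher past the test and 0 lower, and of 10 radial glial markers 6 were lower and 0 higher. Of 9 interneuron and ventral forebrain markers 6 were higher and 0 lower. Of 7 deep-layer markers only Bcl11b passed, the gene whose reporter was sorted. Among all genes, limma's test passed 0.797% as higher and 0.567% as lower. The labels call the cells cortical progenitors. Of 4 telencephalic and cortical progenitor markers analysed, 0 passed in limma, and 0 had an unadjusted p under 0.05 in limma or in the methods' t-test, which after adjustment passed 0 of all 19938 genes and so is given here with no adjustment. Their signals lay between 4.89 (Emx2, GFP-) and 7.90 (Lhx2, GFP+). Of 25 markers of the oligodendrocyte lineage, astrocytes, fibroblasts, pluripotent, endothelial and microglial cells 0 passed limma's test. At an unadjusted p under 0.05 from limma 1 was higher and 4 were lower, where 9.58% of all genes were higher and 5.96% lower. By the methods' t-test with no adjustment 1 was higher and 2 were lower, where 966 of all 19938 genes were higher and 790 lower.

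Negr1 rose in CTIP2:GFP+ cells, and it was the only IgLON gene to pass the test in the fit with day as a factor, although Opcml passed under 2 other settings. Lsamp was lower in GFP+ cells on every day by nearly the same amount. Ntm, Opcml and Iglon5 had higher values in GFP+ cells on every day, but by less, with fractions that overlapped. By limma, at an adjusted p under 0.05, 1 of 5 members was higher and 0 were lower, against 0.797% of all genes that were higher and 0.567% that were lower. At an unadjusted p under 0.05 from limma, 3 members were higher and 1 was lower, where 9.58% of all genes were higher and 5.96% lower. By the methods' t-test with no adjustment 1 member was higher (Negr1) and 1 lower (Lsamp), where 966 of all 19938 genes were higher and 790 lower. The median difference of the 5 members was 0.64, against -0.05 for all genes tested.

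**Figure D1:**
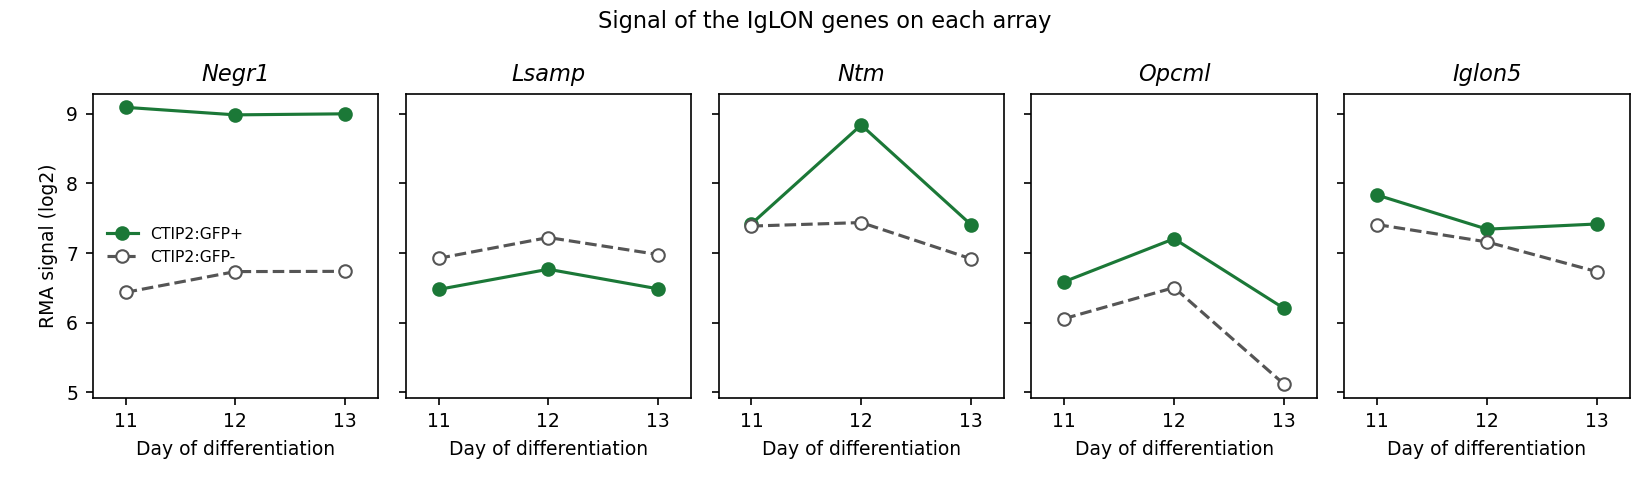
RMA signal (y axis, log2) of each IgLON gene on each array by day of differentiation (x axis). Filled points and solid lines are CTIP2:GFP+ arrays, open points and dashed lines CTIP2:GFP- arrays, with 1 array per point, and levels are not comparable between panels because each gene has its own probes. Negr1 stays between 8.98 and 9.09 in GFP+ cells, Lsamp lies lower in GFP+ cells on each day, and Ntm peaks at 8.84 on the GFP+ array of day 12.

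Negr1 is a GPI-anchored regulator of neurite growth. Its log2 signal was 9.09, 8.98 and 8.997 in GFP+ cells on day 11, day 12 and day 13. In GFP- cells it was 6.44, 6.73 and 6.74. The fractions were far apart, and the whole range of Negr1 among the GFP+ arrays, 0.11, was smaller than the range of 0.30 among the GFP- arrays. The log2 difference was 2.65, 2.25 and 2.26 on the 3 days, which is 6.29-fold, 4.75-fold and 4.79-fold. Its mean was 2.39 (standard error 0.15, 95% interval 2.01 to 2.77, adjusted p = 0.024 from limma), the rank 11 rise among 19938 genes. The difference of 2.45 without day 13 and of 2.44 after median centring of each array was as large, but the adjusted p from limma was then 0.052 and 0.098.

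The high and even level of Negr1 in GFP+ cells went along with more signal of neuronal genes. The mean log2 level of the 15 neuronal markers was 9.09 to 9.45 in GFP+ and 7.47 to 8.51 in GFP- cells, and that of the 10 radial glial markers was 7.44 to 7.99 and 8.78 to 9.31. In these bulk samples more cells of a type and more RNA per cell cannot be told apart, and the part of neuronal content in the Negr1 difference was not tested.

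Lsamp is an adhesion molecule known from neurons of the limbic system. Its log2 signal was 6.48, 6.77 and 6.49 in GFP+ cells on day 11, day 12 and day 13. In GFP- cells it was 6.92, 7.22 and 6.98. Every GFP+ array was below every GFP- array, as for 7.85% of all genes, although the highest GFP+ value, that of day 12, came close to the lowest GFP- value, that of day 11. Both fractions were highest on day 12. The difference was -0.45, -0.46 and -0.49 on the 3 days, so that it varied with an SD of 0.02. Only 0.808% of genes had a smaller SD over days, and the median gene had 0.27. The mean difference of -0.46 (standard error 0.13, 95% interval -0.79 to -0.14) did not pass the test, at an adjusted p of 0.173 from limma, whose standard error rests on the spread of all genes and not of Lsamp alone. GFP- cells, in which Lsamp was higher, also had the higher radial glial levels given above, and the part of these cells in the Lsamp values was not tested.

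The differences of Negr1 and Lsamp thus had opposite signs on all 3 days, although that of Lsamp did not pass the test. The difference of Negr1 exceeded that of Lsamp by 3.10, 2.70 and 2.75 log2 units on day 11, day 12 and day 13, a mean of 2.85 ± 0.22 (SD, n = 3). With 3 days an exact two-sided sign-flip test cannot give a p below 0.25, so no test of this gap was made.

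**Figure D2:**
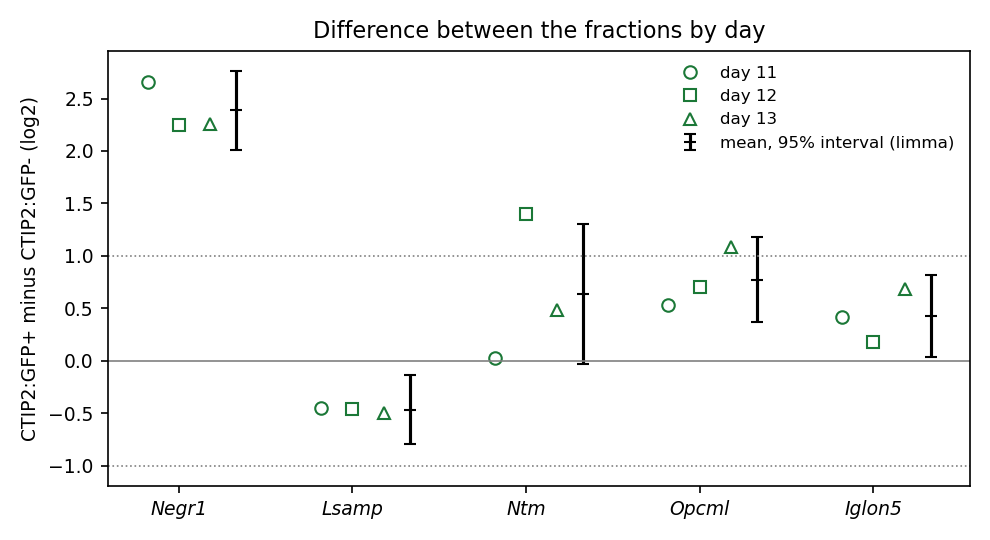
Signal of CTIP2:GFP+ minus that of CTIP2:GFP- cells (y axis, log2) for the 5 IgLON genes (x axis). Open symbols are the 3 days, black bars the mean with its 95% interval from limma, and dotted lines mark a 2-fold difference. The interval of Negr1 runs from 2.01 to 2.77 and that of Lsamp from -0.79 to -0.14, while the points of Ntm spread from 0.03 to 1.40.

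Ntm promotes or inhibits neurite growth depending on the neuron. Its log2 signal was 7.42, 8.84 and 7.41 in GFP+ cells on day 11, day 12 and day 13. In GFP- cells it was 7.39, 7.44 and 6.92. The GFP+ array of day 12 stood alone, 1.42 above that of day 11 and 1.43 above that of day 13, while the GFP- array of day 12 lay only 0.05 above that of day 11. The fractions overlapped, with the GFP- value of day 12 above the GFP+ values of day 11 and day 13. The difference was 0.03, 1.40 and 0.49, and only 5.57% of genes had a larger SD over days than the 0.70 of Ntm. Its mean of 0.64 (standard error 0.27, 95% interval -0.03 to 1.31, adjusted p = 0.343 from limma) did not pass the test. The difference on day 12 exceeded the mean of the other days by 1.14 (standard error 0.40), a contrast chosen after the values were seen, which had an unadjusted p of 0.015 and an adjusted p of 0.870 from limma. In that contrast 0 of 19938 genes passed, and 1138 had an unadjusted p under 0.05.

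Opcml was first known as an opioid-binding protein, and it pairs with other IgLON proteins. Its log2 signal was 6.59, 7.21 and 6.21 in GFP+ cells on day 11, day 12 and day 13. In GFP- cells it was 6.06, 6.50 and 5.12. The last of these values lay below 5.43, the median of the mean signals of all probe sets. Each GFP+ value was above the GFP- value of its day, but the GFP- value of day 12 was above the GFP+ value of day 13. The difference was 0.53, 0.70 and 1.09, with a mean of 0.77 (1.71-fold, standard error 0.16, 95% interval 0.37 to 1.18, adjusted p = 0.096 from limma). It did not pass the test, although the adjusted p was 0.048 when genes with a mean below the 50th percentile of probe sets were left out and 0.035 with a trended and robust eBayes. The largest of its daily differences rested on the GFP- array of day 13, on which the neuronal markers were also lowest, at a mean of 7.47, compared with 8.44 on day 11 and 8.51 on day 12 in this fraction. With all GFP+ arrays and without that GFP- array, so that the days were no longer paired, the difference of Opcml was 0.39. Without both arrays of day 13 it was 0.62, the mean of day 11 and day 12.

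Iglon5 is known as the target of autoantibodies in a neurological disease with disturbed sleep. Its log2 signal was 7.83, 7.34 and 7.42 in GFP+ cells on day 11, day 12 and day 13. In GFP- cells it was 7.41, 7.16 and 6.73. The fractions overlapped, since the GFP- value of day 11 was above the GFP+ value of day 12 and nearly equal to that of day 13. The difference was 0.42, 0.18 and 0.68. Its mean of 0.43 (standard error 0.16, 95% interval 0.04 to 0.82, adjusted p = 0.272 from limma) did not pass the test. Without the GFP- array of day 13, which leaves the days unpaired, it was 0.25. Without both arrays of day 13 it was 0.30. Unlike Ntm, Opcml and Lsamp, Iglon5 was not highest on day 12 in either fraction.

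All members but Lsamp were higher on all 3 days, as were 16.9% of all genes, and Lsamp was lower on all 3 days, as were 21.4%. Every GFP+ array was above every GFP- array for Negr1 alone, against 9.05% of all genes. On average 1 member was over 2-fold higher, against 1.97% of all genes. By day, Negr1 alone was over 2-fold higher on day 11 (1.85% of all genes), Negr1 and Ntm on day 12 (1.48%), and Negr1 and Opcml on day 13 (9.18%). A linear change of the difference from day 11 to day 13 was not detected for any of the 5 members (limma, adjusted p = 0.999 for each), with 0 of them at an unadjusted p under 0.05, where 5.11% of all genes were. Of all genes 0.0351% passed that test. The slope was -0.20 per day for Negr1 and 0.28 per day for Opcml. The standard error was 0.27 for all 5 members alike, so it rests on the spread of all genes and not of each gene. After quantile normalization the slope was -0.38 for Negr1 and 0.41 for Opcml, each with a standard error of 0.13 and an adjusted p of 0.578 from limma.

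Over the 6 arrays, which share fractions and days, the members did not follow 1 pattern. As a description, Pearson's r was 0.84 between Ntm and Opcml, both of which were highest on the GFP+ array of day 12. It was -0.85 between Negr1 and Lsamp. Between Ntm and Lsamp it was -0.14, and between Ntm and Iglon5 0.27. The other pairs ran from -0.68 (Lsamp and Iglon5) to 0.64 (Opcml and Iglon5).

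The genes with the signals most like each member were taken as the 3 with the highest Pearson's r over the 6 arrays, among genes whose arrays spanned at least 1 log2 unit. For Negr1, among 5444 such genes, these were Rab11fip4, a partner of the recycling endosome GTPase Rab11, Nav3, a neuron navigator, and Cdc42ep3, an effector of the GTPase Cdc42, each at r = 0.996. Nav3 differed between the fractions by 1.65, Cdc42ep3 by 1.12 and Rab11fip4 by 0.98, so all of them had smaller differences than Negr1. For Lsamp these were Pcx, pyruvate carboxylase (r = 0.999), Cdh6, a cadherin (0.997), and Lrig1, a transmembrane inhibitor of growth factor receptors (0.995). Cdh6 (-1.55) and Lrig1 (-1.65) fell in GFP+ cells past the test, by over 3 times the log2 difference of Lsamp. For Ntm the closest named genes were Plcb1, a phospholipase C, and Slc17a6, the vesicular glutamate transporter VGLUT2, with C130021I20Rik ahead of both at r = 0.996. Slc17a6 was at 7.40 on the GFP+ array of day 12 and between 4.89 and 5.58 on the other arrays. For Opcml they were Eif2s3y, a translation initiation factor subunit, Pafah1b1, the dynein regulator LIS1, and Gng3, a G protein subunit of neurons, at 0.990 to 0.992. For Iglon5 they were Ftl1, the ferritin light chain, E130308A19Rik and Zfp618, at 0.969 to 0.976. Of the genes searched 83 had an r over 0.95 with Negr1, 117 with Lsamp, 21 with Ntm, 255 with Opcml and 10 with Iglon5.

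**Figure D3:**
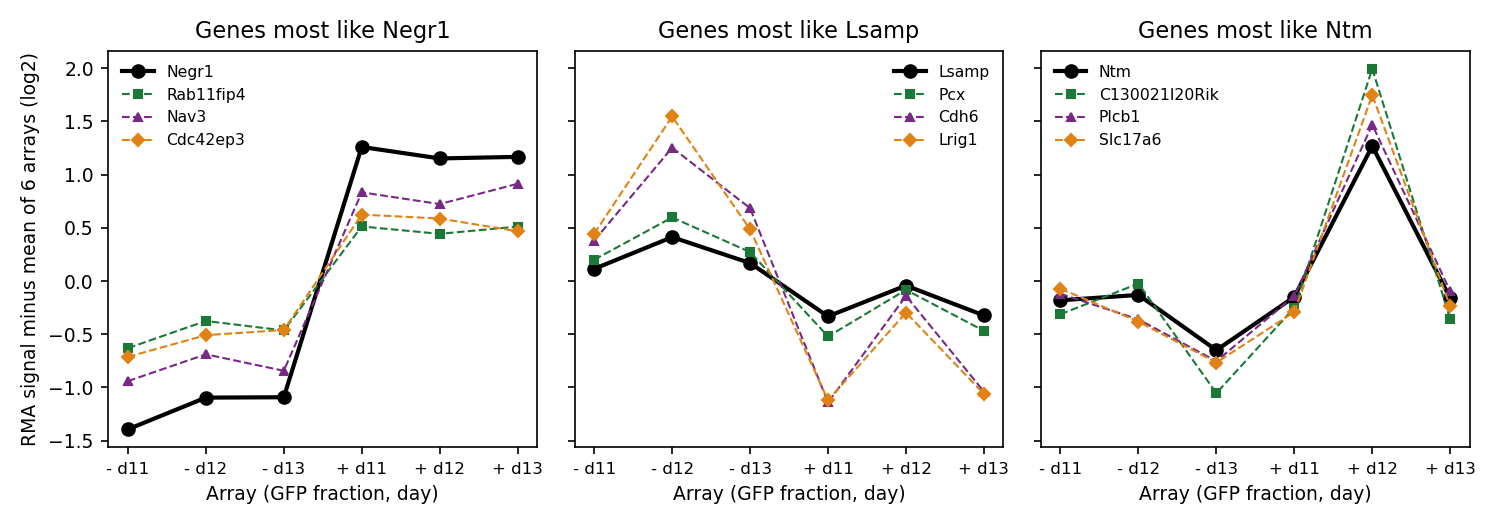
RMA signal minus the mean of the 6 arrays (y axis, log2) for Negr1, Lsamp and Ntm (black) and the 3 genes most like each (coloured), on the CTIP2:GFP- and then the CTIP2:GFP+ arrays of day 11, day 12 and day 13 (x axis, d for day). Negr1 and its likest genes step up between the fractions, while Ntm and its likest genes stand out on the GFP+ array of day 12.

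Of 4 genes listed as proteases or partners of IgLON proteins 0 passed limma's test in either direction, where 0.797% of all genes passed as higher and 0.567% as lower. At an unadjusted p under 0.05, 9.58% of all genes were higher and 5.96% lower in limma. The methods' t-test with no adjustment had 966 of all 19938 genes higher and 790 lower. Of the 4 genes listed, 1 was lower and 0 were higher by each of these tests. That gene was Fgfr2, the FGF receptor reported to bind Negr1, at 5.22, 5.57 and 5.60 in GFP+ cells and 6.34, 7.02 and 5.997 in GFP- cells on day 11, day 12 and day 13. All of its GFP+ arrays were below its GFP- arrays, as for 7.85% of all genes, with a difference of -0.99 (standard error 0.22, adjusted p = 0.109 from limma). Adam10, a protease that sheds Negr1, differed by -0.06, -0.26 and 1.10 on the 3 days, with a mean of 0.26, and the value of day 13 came with a low GFP- signal of 6.11. Adam17, a related sheddase, had a mean difference of -0.36, and Npc2, a cholesterol carrier reported to bind Negr1, of -0.20.

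GPI anchors are built on a lipid of the endoplasmic reticulum, joined to proteins by a transamidase and then remodelled. Of 28 genes for these steps 0 passed limma's test in either direction, where 0.797% of all genes passed as higher and 0.567% as lower. At an unadjusted p under 0.05 from limma 2 were higher and 0 lower, where 9.58% of all genes were higher and 5.96% lower. With no adjustment the methods' t-test had 0 of the 28 higher or lower, and 966 of all 19938 genes higher and 790 lower. The median difference of the 28 was 0.05. The largest were 0.87 for Pgap1, which removes an acyl chain from the attached anchor (standard error 0.19, adjusted p = 0.102 from limma), and 0.70 for Pigu, a transamidase subunit (adjusted p = 0.303). Pgap1 was at 8.75, 9.49 and 8.87 in GFP+ cells and 8.25, 8.68 and 7.56 in GFP- cells. Its fractions did not overlap, as for 9.05% of all genes in this direction, and it was higher on all 3 days, as were 16.9%. At the other end were Pigp (-0.60), of the first enzyme complex of the pathway, and Pigl (-0.32), which removes an acetyl group from the lipid.

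Other GPI-anchored surface proteins of neurons were spread to both sides. Of 39 measured genes 0 passed limma's test in either direction, where 0.797% of all genes passed as higher and 0.567% as lower. The median difference of the 39 was 0.05. At an unadjusted p under 0.05 from limma 7 were higher and 3 lower, beside 9.58% and 5.96% of all genes. The methods' t-test with no adjustment had 2 of the 39 higher and 2 lower, beside 966 and 790 of all 19938 genes. On average 2 were over 2-fold higher and 2 over 2-fold lower, while 1.97% and 1.02% of all genes were. The former were Cd24a, a small mucin-like protein of immature neurons (1.17, standard error 0.20, adjusted p = 0.065 from limma), and Gpc2, a glypican of the developing brain (1.15, adjusted p = 0.101). The latter were Rgma, a repulsive guidance molecule (-1.22, standard error 0.22, adjusted p = 0.066), and Gpc3, another glypican (-1.01, adjusted p = 0.126). The differences of these 39 genes ran from -1.22 to 1.17. The value of Negr1 lay beyond all of them, but the family and this list were chosen with its rise already known.

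**Figure D4:**
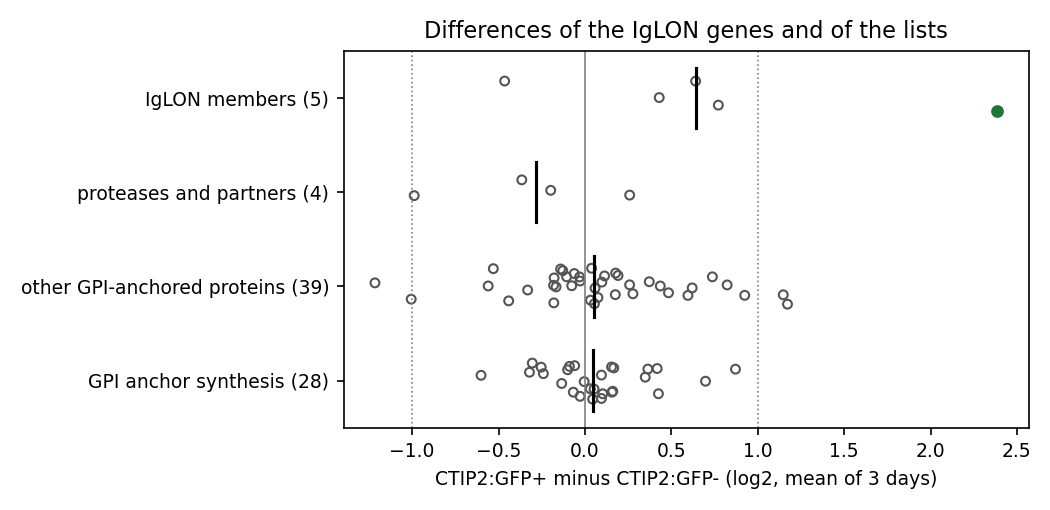
Signal of CTIP2:GFP+ minus that of CTIP2:GFP- cells (x axis, log2, mean of 3 days) for the IgLON genes and 3 lists (y axis, numbers of genes in brackets). Each point is a gene, filled where it passed limma's test at an adjusted p under 0.05, black bars are medians, and dotted lines mark a 2-fold difference. Negr1 at 2.39 is the only filled point, and the medians of both GPI lists lie at 0.05.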

How the data were processed

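Total RNA of 6 sorted samples was labelled with biotin and hybridised to GeneChip Mouse Gene 1.0 ST Arrays. The authors calculated probe set signals with RMA16 in GeneSpring, and the deposited values are these log2 signals. For the software version, any filter and joint or separate normalization of the 6 arrays nothing is stated in the methods or labels. RMA can compress the differences of dim genes. Of 28853 probe sets 21789 had 1 symbol in the platform annotation, which gave 19938 genes, each represented by its probe set with the highest mean, and 21698 of these probe sets matched the gene table of GRCm38.p6 by Entrez ID. The sources name no build for the probe sets.

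GFP+ and GFP- cells were compared in R 4.3.3 with limma 3.58.1, in a model of fraction plus day (2 residual degrees of freedom), eBayes and Benjamini-Hochberg adjustment over all 19938 genes, at a threshold of 0.05. A second fit added the slope of the difference over days (1 residual degree of freedom). The samples were grouped by the sort in the labels and paired by day. After subtraction of each fraction's mean, the 2 arrays of a day had an r across genes of 0.112 (day 11), 0.558 (day 12) and 0.368 (day 13), but r was 0.297 between day 11 GFP+ and day 13 GFP-. The fits were tested on simulated data. The members and all lists (proteases and partners, GPI synthesis, other GPI-anchored proteins, and markers of neurons, deep layers, interneurons, progenitors, radial glia and other cell types) were chosen with earlier results of these data known. Genes named are the members, Bcl11b, the proteases and partners, the 2 largest rises and falls of each list described, and the 3 genes most like each member. Alternatives were no replicate block for the day, each day or array left out, median centring, quantile normalization, other uses of probe sets, filters on dim genes, a trended and robust eBayes and the methods' t-test. The t-test was unpaired and ignored the day, and the methods do not name it for the arrays. The number of arrays limits the precision.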

Additional observations from a re-analysis of the deposited data

How the results depend on the processing

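The direction of the mean difference of all 5 members was the same under every alternative run. Negr1 lay between 2.14 and 2.44 under the alternatives that kept all arrays. Its adjusted p stayed under 0.05 with no replicate block (2.39, adjusted p = 0.011 from limma), and the block changed no call of the other members. The call was lost after median centring (2.44, adjusted p = 0.098) and with the methods' t-test (2.39, adjusted p = 0.124), by which 0 of all 19938 genes passed. With a day or an array left out Negr1 ran from 2.25 to 2.46, and the call was lost without day 13 (adjusted p = 0.052). The fits that leave out 1 array use no block, and there the call was lost without the GFP- array of day 11 (0.088) and without the GFP+ array of day 11 (0.120) or day 13 (0.0997). Opcml, at 0.77, passed with genes of a mean below the 50th percentile left out (adjusted p = 0.048) and with a trended and robust eBayes (0.035). With arrays left out Ntm ran from 0.17 to 0.94, Opcml from 0.39 to 1.08, Iglon5 from 0.25 to 0.58 and Lsamp from -0.56 to -0.37. The slope over days turned to 0.036 for Lsamp after median centring and to -0.036 for Iglon5 after quantile normalization, neither past the test. Of all genes 159 were higher and 113 lower. These counts were 84 and 41 with no replicate block, 0 and 0 after median centring (1746 and 869 at an unadjusted p under 0.05) or with the methods' t-test (966 and 790), and 549 and 510 with a trended and robust eBayes. They were 451 and 250 without genes below the 20th percentile on every array, and 703 and 337 without those of a mean below the 50th. After quantile normalization 52 were higher and 99 lower. With arrays left out they ran from 0 to 930 and from 0 to 229. They were 0 and 0 without day 13 (1543 and 1521 at an unadjusted p under 0.05) and, with no block, without either array of day 11 or the GFP+ array of day 13. The causes were not tested.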
